A study of Homo sapiens with 12 samples.

Results

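The miR-548 family is a large group of primate microRNAs (miRNAs) whose mature names share the stem miR-548. Every entry of the deposited human miRNA count table whose name begins with hsa-miR-548, whatever its letter, copy or arm, was taken, which gave 80 of 2588 entries (3.09%). Of these, 28 names carry 5p, 28 carry 3p and 24 give no arm. No count was seen for 16 entries in any library. The other 64 held counts, but 14 of them fell into 6 sets with identical counts in all 12 libraries, so that 56 distinct count rows were left. The rule for members used names alone and no measured value, but earlier results of these data were known when the family was chosen.

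The libraries are small RNA of 17 to 52 nt from the breast cancer line MDA-MB-231, which is triple-negative, and from the extracellular vesicles (EVs) it shed. There were 3 derived lines: a control line transduced with an empty lentiviral vector, a line with a lentiviral short hairpin RNA against RAB27A (Rab27a KD) and a line edited with CRISPR-Cas9 and a pair of guides at the miR-122 gene (miR-122 KO). RAB27A is a GTPase of the exosome release pathway, and miR-122 is a miRNA typical of hepatocytes. All lines were grown with 10% fetal bovine serum. Medium for EVs was collected over 24 h without serum but with 1% bovine serum albumin and spun in an ultracentrifuge, and the producing cells were harvested at the same time. Cells and EVs of each line gave 2 libraries each, making 6 groups. Each genotype is a single line, whether the edited line is 1 clone is not given in the sources used here, and the replicates are not said to be separate cultures, so that p-values cover only the spread between the samples at hand, possibly a technical one.

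miR-548 hairpins derive from MADE1 elements, short inverted-repeat relatives of mariner DNA transposons that spread in primate genomes. Because the element is almost a palindrome, its transcript folds back on itself and can be cut by Drosha and Dicer as a miRNA precursor, and the arms of different copies resemble each other and each other's reverse complements. Mature miRNAs pair with target transcripts mainly through the seed, the bases near the 5′ end. Many miR-548 copies lie in introns, and single members are usually scarce in human tissues.

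The sequences show how little separates many family names. RefSeq (GRCh38.p14) held a mature sequence for 54 of the 80 entries, 18 to 23 nt long. These sequences carry 29 different seeds, and 33 of them share their seed with at least 1 other member. The hairpin of MIR548AT (chr17:42494773-42494830, plus strand, intron of ATP6V0A1) is shown first because it displays the fold-back plan, with both mature arms in capitals. Below it stand the entries on which the results turn, 5′ to 3′, with the seed (bases 2 to 8) in capitals.
MIR548AT hairpin: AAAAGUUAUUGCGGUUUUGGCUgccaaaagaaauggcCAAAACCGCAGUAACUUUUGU
miR-548k: aAAAGUACuugcggauuuugcu
miR-548av-5p: aAAAGUACuugcggauuu
miR-548l: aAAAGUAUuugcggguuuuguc
miR-548j-5p: aAAAGUAAuugcggucuuuggu
miR-548ap-5p: aAAAGUAAuugcggucuuu
miR-548aj-5p, miR-548g-5p and miR-548x-5p: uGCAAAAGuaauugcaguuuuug
miR-548o-3p: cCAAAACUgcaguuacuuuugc
miR-548av-3p: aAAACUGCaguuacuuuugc
miR-548u: cAAAGACUgcaauuacuuuugcg
miR-548n: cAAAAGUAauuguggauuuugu
miR-548b-3p: cAAGAACCucaguugcuuuugu

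The largest seed group, AAAGUAA, holds 11 entries with 398 counts over all libraries, among them miR-548ap-5p, miR-548j-5p, miR-548b-5p and miR-548y. AAAAACU is shared by 7 entries, all named 3p, with only 46 counts. GCAAAAG is shared by 4 entries, miR-548aj-5p, miR-548f-5p, miR-548g-5p and miR-548x-5p, with 600 counts, which are the same 200 counts under 3 of the names. Those 3 names have the same 23 nt sequence at the 3 loci listed in RefSeq under these names: MIR548G on chromosome 4 between genes, MIR548X on chromosome 21 in an intron of the noncoding MIR548XHG, and MIR548AJ2 on the X chromosome, antisense to an intron of SYTL5. The palindrome is visible as well, since 22 bases of miR-548aj-5p are the reverse complement of the whole of miR-548aq-3p.

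Nested annotations also shared counts. miR-548ap-5p is the first 19 bases of miR-548j-5p, and both names carried the same 152 counts. miR-548av-5p (chr18:72853365-72853382, minus strand, intron of NETO1) is the first 18 bases of miR-548k (chr11:70283986-70284007, plus strand, intron of PPFIA1). Their rows, 544 and 542 counts, differed by 6 counts summed over the libraries (1.10%), so that the table does not say which of the hairpins these reads came from. miR-548av-3p (chr18:72853321-72853340) matches miR-548o-3p from base 3 on, but their 111 and 87 counts differed more, by 24 counts (21.6%). The other near-equal pair was miR-548ad-5p and miR-548ay-5p, with 502 and 483 counts and a summed difference of 19 counts (3.78%).

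In all, the 54 entries with a sequence mapped to 63 loci on 21 chromosomes. Of these loci, 45 lie inside protein-coding genes, 38 of them on the strand of the gene, and 15 lie outside any annotated gene (GENCODE v29). Base composition set the family apart from the rest of the table as a description: the median GC content was 34.1% over the 54 sequences and 52.2% over 2227 other entries. The family's range, 15.8% to 54.5%, lies within that of the others, 8.70% to 95.2%.

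The libraries held 164656 to 11840597 miRNA counts, with the Rab27a KD EVs the shallowest at 164656 and 170366. Levels are given as CPM, counts scaled to a common library total of 1000000 miRNA counts, and are not divided by length. Over the family, 1 count was worth 0.0845 CPM in the deepest library and 6.07 CPM in the shallowest. miR-122-5p, the product of the edited gene, had 5 and 4 counts in control cells, 39 and 40 in KD cells and 0 and 0 in KO cells, and 790 and 651, 7 and 5, and 4 and 3 in the EVs of those lines. High markers of a mesenchymal breast line (miR-21-5p, miR-100-5p, miR-221-3p and miR-222-3p) summed to 453934 to 685523 CPM, and 3 epithelial markers to 7.18 to 54.7 CPM, with at most 1 of the 3 at 0 in a group. The 7 blood markers summed to 9612 and 11149 CPM in control EVs and to between 110 and 285 CPM in every other library, where up to 2 of the 7 were at 0 in a group. A list of 5 stromal and endothelial markers stood at 4426 and 4435 CPM in control EVs and at 20.7 to 293 CPM elsewhere. What part these foreign-type miRNAs had in the EV comparisons was not tested.

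As a whole the family was rare, with 0.00416% to 0.01996% of the miRNA counts of a library, and the lowest shares were those of the KO cells. With identical rows taken once, it summed to 102 and 114 CPM in control cells and 104 and 96.8 CPM in KD cells, but to 41.6 and 45.7 CPM in KO cells. Group means were 108 ± 8.79, 101 ± 5.41 and 43.7 ± 2.93 CPM (SD, n = 2 each). The exact 95% Poisson intervals cover counting error only. They take every count as a separate read and can be too narrow, since near-equal rows may share reads. In the KO cell libraries they were 37.7 to 45.8 and 41.6 to 50.2 CPM. These did not reach the lowest bound of the other cell libraries, 86.2 CPM. The KO cells thus stood apart from both other lines by far more than the replicate spread.

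EVs did not show that difference. Control EVs held 96.3 and 93.6 CPM of the family, and KO EVs 104 and 88.1 CPM. KD EVs held 140 and 200 CPM, but these rest on 23 and 34 counts, with intervals of 88.5 to 210 and 138 to 279 CPM. With near-equal rows taken once, the KD EVs held 103 and 147 CPM. On this scale of library totals KO EVs and control EVs overlapped, and the KD EV values lay above both with wide intervals. The share of 5p entries among family counts ran from 42.4% to 56.8% over the libraries and that of 3p entries from 19.6% to 34.5%, so no library was made up of one arm alone. Sums over chosen members were given no test.

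**Figure D1:**
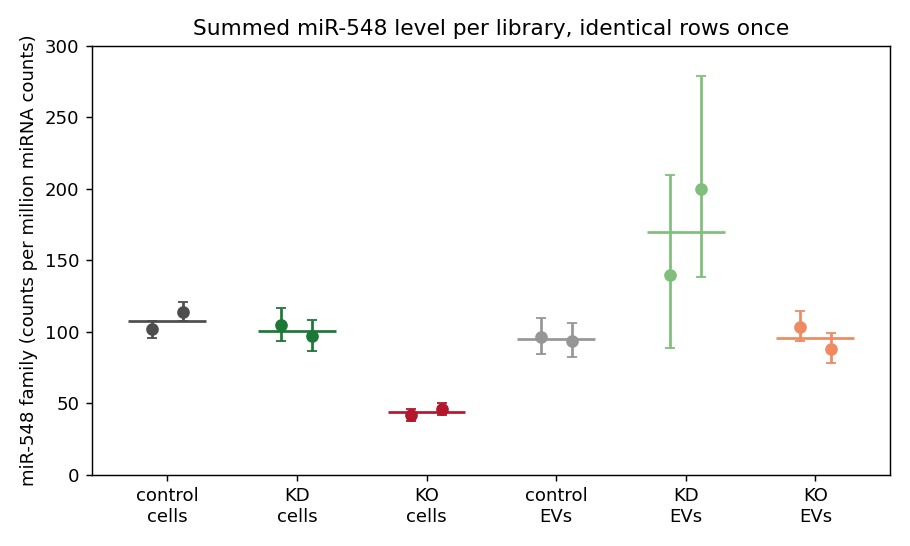
Summed miR-548 level (CPM, identical rows once) on the vertical axis for the 12 libraries by group, with points for libraries, vertical bars for exact 95% Poisson intervals and horizontal lines for group means. The KO cell libraries sit at 41.6 and 45.7 CPM, below the other 10 libraries, which lie between 88.1 and 200 CPM.

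The sum is dominated by a few rows: 29 distinct rows had 20 or more counts over the 12 libraries and 27 had fewer. The 8 rows with the highest mean CPM over the 12 libraries were, in order, miR-548av-5p, miR-548k, miR-548ad-5p (with the identical miR-548ae-5p), miR-548ay-5p, miR-548e-3p, miR-548a-3p, miR-548d-5p and miR-548aj-5p (with miR-548g-5p and miR-548x-5p). The first places of miR-548av-5p and miR-548k rest on the KD EVs, where their 13 and 11 counts were worth 38.8 and 32.8 CPM on average. Over the other 10 libraries the same 8 rows led, with miR-548e-3p first at 9.01 CPM, miR-548ad-5p at 8.93, miR-548av-5p at 8.74, miR-548k at 8.72 and miR-548ay-5p at 8.45, values that lie close together. In cells, miR-548av-5p stood at 9.63 and 10.1 CPM in control, 7.28 and 9.23 in KD and 6.39 and 8.34 in KO libraries. Its near-copy miR-548k stood at 9.54 and 10.1, 7.28 and 9.23, and 6.39 and 8.54 CPM. For this pair the 3 lines lay close together.

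The next rows behaved otherwise. miR-548ad-5p stood at 9.46 and 11.02 CPM in control cells, 9.18 and 7.64 in KD cells and 3.74 and 3.76 in KO cells. miR-548ay-5p gave 9.37 and 10.8, 7.60 and 7.32, and 3.64 and 3.76 CPM in the same order. miR-548e-3p, the 3p row with the most counts (573), gave 12.7 and 14.7, 11.1 and 9.87, and 4.82 and 4.78 CPM. In each of these rows both KO libraries lay below all 4 libraries of the other lines.

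miR-548d-5p also had its lowest cell values in the KO line, 2.07 and 2.74 CPM against 5.83 and 6.78 in control and 6.65 and 4.78 in KD cells. miR-548aj-5p, with its identical copies, dropped to 0.492 and 0.305 CPM in KO cells (5 and 3 counts) from 4.48 and 5.42 in control cells (53 and 60 counts), and stood at 5.70 and 3.50 CPM in KD cells. miR-548a-3p had another pattern, with 5.32 and 4.34 CPM in control, 8.86 and 10.2 in KD and 4.62 and 2.64 in KO cells. Here the KD libraries were the high ones, and control and KO libraries overlapped.

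**Figure D2:**
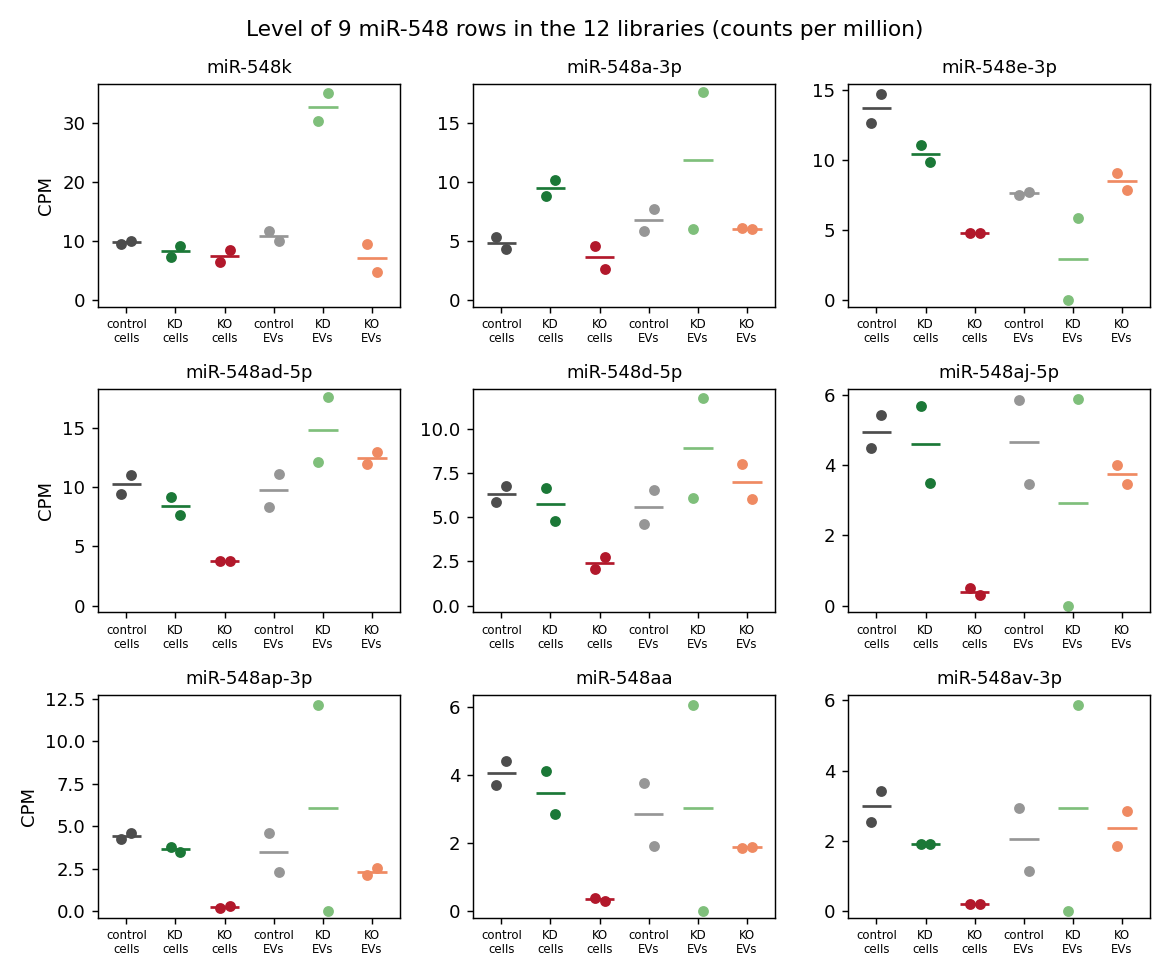
Level (CPM, vertical axes starting near 0 and scaled per panel) of 9 miR-548 rows in the 12 libraries, with points for libraries and lines for group means. miR-548aj-5p, miR-548ap-3p, miR-548aa and miR-548av-3p stay below 0.5 CPM in both KO cell libraries, while miR-548k keeps 6.39 and 8.54 CPM there.

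KO cells against control cells gave the clearest change in the family. miRNAs were tested with edgeR's quasi-likelihood test with Benjamini-Hochberg adjustment over all tested miRNAs at 0.05, and 27 of the 80 members (22 distinct rows) passed the filter on low counts among the 613 miRNAs tested in cells. Of these 27 entries 17 fell (63%) and 0 rose. Among all 613 miRNAs 34.6% fell and 27.7% rose. Over distinct rows 12 of 22 fell (54.5%). The median log2 fold change of the 27 entries was −1.17, beside −0.08 over all tested miRNAs.

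By size of change the rows are described in 2 groups. In the first, 5 distinct rows with 8 entries fell by more than 3 on the log2 scale. miR-548ap-3p had 50 and 51 counts in control and 2 and 3 in KO cells, 4.42 ± 0.27 against 0.251 ± 0.0766 CPM (SD, n = 2 each), a log2 fold change of −3.74 (SE 0.46, adjusted p = 6.19e-07). miR-548av-3p had 30 and 38 counts against 2 and 2, a change of −3.47 (SE 0.54, adjusted p = 1.22e-05). miR-548aj-5p and its identical copies changed by −3.25 (SE 0.44, adjusted p = 2.54e-06). In each of these rows the KO libraries lay far below the control libraries.

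miR-548aa and miR-548t-3p, a single row with 44 and 49 counts in control and 4 and 3 in KO cells, changed by −3.15 (SE 0.45, adjusted p = 4.28e-06). miR-548o-3p had 24 and 29 counts in control cells and 1 in each KO library. It passed the test (adjusted p = 2.38e-05), and its pooled share was 23.1-fold lower, with an exact binomial 95% interval of 6.10 to 196. miR-548v was below the filter and not tested, with 11 and 9 counts in control cells and 0 in both KO libraries, at least 5.82-fold lower with the 3-count limit taken over the group.

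In the second group 7 rows fell by 1.05 to 2.20. miR-548l, which has the seed AAAGUAU and lies on the strand of MRE11 in an intron of that gene, changed by −2.20 (SE 0.54, adjusted p = 0.00138), from 25 and 23 counts to 2 and 5. miR-548ap-5p and miR-548j-5p changed by −1.64 and miR-548n, in an intron of DPY19L1, by −1.37. The abundant rows miR-548e-3p (−1.17, SE 0.24, adjusted p = 2.30e-04), miR-548ad-5p and miR-548ae-5p (−1.11), miR-548ay-5p (−1.10) and miR-548d-5p (−1.05) lay close to each other on the TMM-scaled fold. Both arms of the ap hairpin were tested, and both fell: the 3p arm by 3.74 and the 5p arm, which shares its counts with miR-548j-5p, by 1.64.

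The 10 tested rows outside those groups did not pass. The near-equal pair miR-548av-5p and miR-548k was among them, miR-548av-5p with a log2 fold change of −0.09 (SE 0.23, adjusted p = 0.737) and miR-548k with −0.07 (SE 0.23, adjusted p = 0.810), as were miR-548a-3p (−0.05), miR-548u (−0.17), miR-548b-3p (0.52) and miR-548d-3p (1.27). In all, 25 of the 27 tested entries had a fold change below 0, against 52.7% of all tested miRNAs. The MIR548AV hairpin thus showed an arm that fell and an arm that did not pass, but the 5p counts are nearly those of miR-548k, and the difference between the arms was not tested.

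With every replicate left out in turn, 17 to 20 entries were called, and 15 with DESeq2. Each of the 8 entries in the first group kept its direction and its call in every alternative run for it. Over all 613 tested miRNAs 382 passed in the main fit and 326 with DESeq2, in either direction. With library totals in place of TMM factors the median of all miRNAs moved from −0.08 to −0.42, and the 17 calls were still all lower. With identical and near-equal rows taken once, 11 of the 20 distinct rows tested passed, all lower. Of all 598 miRNAs tested there 373 passed, a count that pools both directions and so is not a background for the 11.

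**Figure D3:**
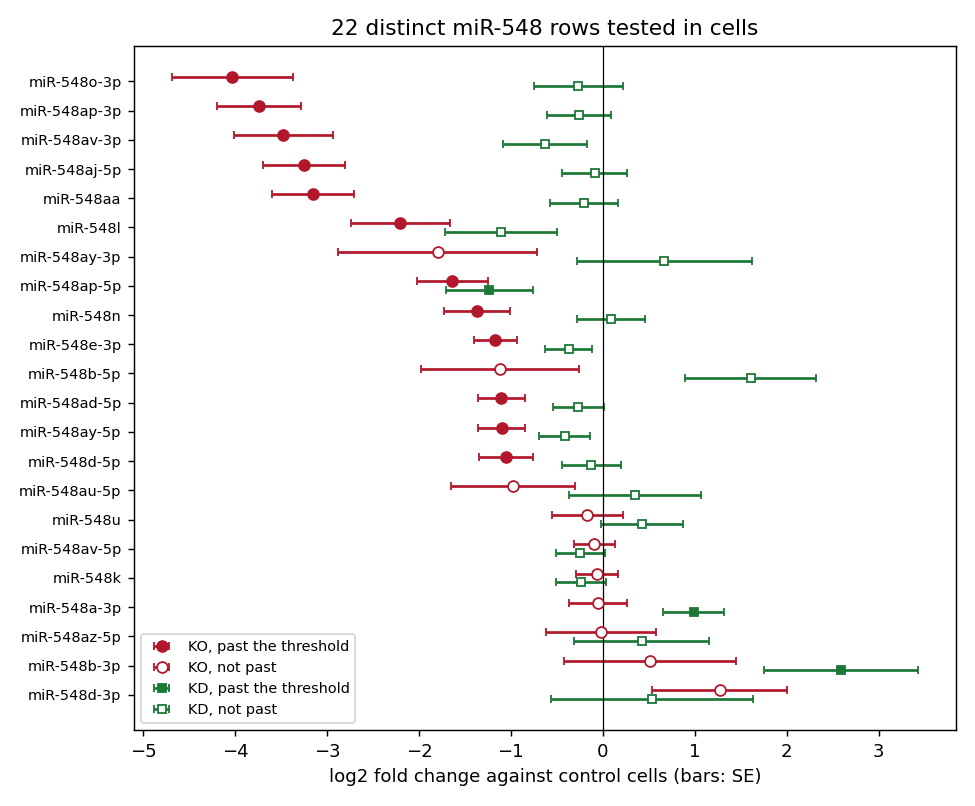
log2 fold change against control cells (horizontal axis, bars for SE) of the 22 distinct miR-548 rows tested in cells, with circles for KO and squares for KD and filled symbols for an adjusted p under 0.05. The 12 filled KO points run from −4.03 to −1.05, while 3 KD points are filled.

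A shared stretch of sequence was looked for after these values were seen, so it is a description. The mature sequences of miR-548o-3p, miR-548av-3p and miR-548aj-5p all hold UGCAGUU, searched on the miRNA strand only, and are printed here with that stretch in capitals because these rows changed most among the tested rows with a sequence. miR-548ah-3p and miR-548ai are shown as scarce members that hold it too.
miR-548o-3p: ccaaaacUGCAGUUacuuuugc
miR-548av-3p: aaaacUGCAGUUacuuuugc
miR-548aj-5p: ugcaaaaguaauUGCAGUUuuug
miR-548ah-3p: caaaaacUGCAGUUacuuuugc
miR-548ai: aaagguaauUGCAGUUuuuccc
The stretch occurs in 16 of 2281 mature entries with a sequence (0.701%), in 12 of the 54 family sequences (22.2%) and in 4 of 2227 sequences outside the family. Of the 16 entries 6 were tested in KO against control cells. The 5 family entries among them, 3 distinct rows, ran from −4.03 to −3.25, but the holder outside the family, miR-18b-5p, stood at −1.70 (SE 0.91) and did not pass (adjusted p = 0.112). The 10 tested family entries with a sequence that lack the stretch ran from −2.20 to 0.52. The stretch was picked from the rows that fell most, so this split follows from the choice and is no evidence on the stretch. The 3 rows are also not separate sequences, since miR-548av-3p lies wholly within miR-548o-3p. miR-548ah-3p had 4 and 7 counts in control and 0 and 1 in KO cells, while miR-548ai had 2 and 0 against 1 and 2. miR-548ap-3p and miR-548aa, which fell as far, have no sequence here.

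GC content moved with the KO comparison in the whole table. Across 535 of the 613 tested miRNAs that have a sequence, the log2 fold change of KO against control cells had a Spearman rho of 0.449 with GC content, and that of KD against control cells 0.00719; the miRNAs share libraries and are not independent replicates. Over the 15 tested family entries with a sequence rho was 0.22, and 0.09 over their 12 distinct rows, values too few to read a relation from; 12 of the 27 tested entries have no sequence. For orientation, miR-548o-3p has 40.9% GC, miR-548u 39.1% and miR-548n 27.3%. The high mesenchymal markers also took more of the KO cell libraries, 668806 and 685523 CPM against 548559 and 555314 in control cells. Other marker lists were lower in KO than in control cells: the 3 epithelial markers summed to 7.18 and 8.34 CPM against 38.0 and 38.7, and the 5 stromal and endothelial markers to 20.7 and 26.0 CPM against 84.0 and 84.3. Without miR-100-5p and miR-21-5p in the totals, the family share was 193 ± 12.6 CPM in control, 174 ± 12.5 in KD and 108 ± 5.82 in KO cells (SD, n = 2 each). The part of GC content or of these markers in the family's change was not tested.

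KO cells were also set against KD cells, a comparison added after values had been seen. There 16 of 27 entries were lower in KO cells and 0 higher, where 33.8% of all 613 miRNAs were lower and 30.7% higher. The median of the 27 entries was −1.10 beside 0.03 over all tested miRNAs. Among the 16 are miR-548b-3p and miR-548b-5p, which passed the filter only through the KD libraries, where they are high. Their calls are therefore no support for a difference. miR-548ap-3p differed by −3.48 (SE 0.57, adjusted p = 1.96e-05), miR-548aj-5p by −3.16, miR-548aa by −2.95 and miR-548e-3p by −0.80 by edgeR's quasi-likelihood test with Benjamini-Hochberg adjustment. miR-548k (0.17) and miR-548av-5p (0.15) did not pass here either. Without KD cell replicate 1 the count was 9, and over all single omissions it ran from 9 to 19. The KO libraries enter both this comparison and the one with control cells.

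KD cells gave few calls against control cells in this family. Of the 27 tested entries 2 rose and 2 fell, where 24.3% of all 613 tested miRNAs rose and 29.5% fell, so both shares lay below the background. The members are scarce, with SE values from 0.25 to 1.10 on the log2 scale. Few calls therefore do not show that they changed less than other miRNAs. The median was −0.20 beside −0.11. miR-548b-3p lies in an intron of FAM184A on its strand. It had 5 and 7 counts in KD cells against 3 and 4 in control libraries that were over 3 times as deep. Its log2 fold change was 2.59 (SE 0.84, adjusted p = 0.0136 by edgeR's quasi-likelihood test). This row passed the filter on low counts only through the KD libraries, at 1.58 and 2.23 CPM. In the other cell libraries it stood at 0.102 to 0.590 CPM. The call is therefore no support for a rise. miR-548a-3p rose by 0.99 (SE 0.33, adjusted p = 0.0167), and its KD libraries at 8.86 and 10.2 CPM lay above both control libraries. The entries that fell were the identical miR-548ap-5p and miR-548j-5p, from 4.05 and 3.52 CPM to 1.58 and 1.59 CPM (log2 fold change −1.23, SE 0.48, adjusted p = 0.0344).

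These KD calls depended on both libraries of a group. Leaving out a control or KD cell library leaves 1 library in that group, which is then assumed to vary like the other groups. Calls over all tested miRNAs also became fewer in each of these fits. miR-548b-3p passed in none of these 4 fits (lowest adjusted p = 0.0597), while its log2 fold change stayed between 2.35 and 2.89. miR-548a-3p was lost without control cell replicate 2 (0.91, adjusted p = 0.0980) and without either KD library (1.09 and 0.91, adjusted p = 0.125 and 0.189), and also without the filter on low counts (0.76, adjusted p = 0.0616). miR-548ap-5p was lost in each of those 4 omissions, at −1.27 to −1.13, with RLE size factors (−1.11, adjusted p = 0.0539) and with DESeq2 (−1.11, adjusted p = 0.229). With RLE size factors 3 entries were higher and 0 lower, and with DESeq2 2 higher and 0 lower. Of the rows that fell most in KO cells, miR-548aj-5p (−0.09), miR-548aa (−0.20), miR-548ap-3p (−0.26) and miR-548o-3p (−0.27) had KD values near 0. miR-548av-3p stood at −0.63 (SE 0.46). None of these rows passed the threshold.

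In EVs 14 of the 80 entries, 10 distinct rows, passed the filter among 488 tested miRNAs. miR-548k stood at 11.7 and 10.0 CPM in control EVs and 9.59 and 4.74 in KO EVs, and miR-548av-5p at 11.7 and 10.0 and at 9.59 and 5.05 CPM. In KD EVs these entries stood at 30.4 and 35.2 CPM (5 and 6 counts) and at 36.4 and 41.1 CPM (6 and 7 counts). The KD EV libraries were the high ones for this pair, on few counts.

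miR-548ad-5p was at 8.38 and 11.2 CPM in control EVs, 12.1 and 17.6 in KD EVs and 11.99 and 12.9 in KO EVs. miR-548ay-5p gave 7.96 and 10.0, 6.07 and 17.6, and 11.5 and 12.6 CPM. For miR-548e-3p the values were 7.54 and 7.70, 0 and 5.87, and 9.06 and 7.89 CPM. In these rows the KO EV libraries lay above the control EV libraries, by less than 2-fold, and the KD EV values rest on 0 to 3 counts.

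miR-548a-3p stood at 5.86 and 7.70 CPM in control EVs, 6.07 and 17.6 in KD EVs and 6.13 and 6.0 in KO EVs. miR-548d-5p gave 4.61 and 6.55, 6.07 and 11.7, and 7.99 and 6.0 CPM. miR-548aj-5p, scarce in KO cells, gave 5.86 and 3.47 in control EVs, 0 and 5.87 in KD EVs and 4.0 and 3.47 in KO EVs. Control and KO EVs overlapped in all 3 rows.

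By edgeR's quasi-likelihood test with Benjamini-Hochberg adjustment, 1 of the 14 entries was higher in KO than in control EVs and 0 were lower, where 18.9% of the 488 miRNAs were higher and 22.3% lower. That entry was miR-548ay-5p (log2 fold change 0.79, SE 0.29, adjusted p = 0.0451). Its near-copy miR-548ad-5p missed the threshold (0.72, adjusted p = 0.0527). The miR-548ay-5p call was lost in each of 13 alternatives, with changes from 0.41 to 0.85 and adjusted p from 0.0523 to 0.368. Of the rows that had fallen furthest in KO cells, miR-548aj-5p gave 0.08 (SE 0.45) and miR-548ap-3p −0.18 (SE 0.57) in EVs, and neither passed. The others of that first group, miR-548o-3p, miR-548av-3p and miR-548aa, were below the filter in EVs and not tested.

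Between KD and control EVs 1 entry was higher and 0 were lower, where 18.9% of the 488 miRNAs were higher and 27.5% lower. It was miR-548av-5p (log2 fold change 1.72, SE 0.56, adjusted p = 0.0228). miR-548k, with 11 counts in KD EVs to the 13 of miR-548av-5p, gave 1.48 (adjusted p = 0.0612). The call was lost without either control EV library (1.68 and 1.5) or either KD EV library (1.71 and 1.40). Only 12 and 16 of the 56 distinct rows had a count in the KD EV libraries, so that for most members no difference was detectable at this depth.

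The comparison of EVs with their own cells was made in a fit on all 12 libraries, in which 574 miRNAs and 19 of the 80 entries (14 distinct rows) were tested. It compares shares of different RNA pools and not amounts released per cell. Averaged over the 3 lines, 1 of the 19 entries was higher in EVs and 0 lower, where 21.6% of all 574 miRNAs were higher and 21.4% lower. This was miR-548av-5p (log2 fold change 0.52, SE 0.22, adjusted p = 0.0486), a call lost in 12 of 19 alternatives. By line, the log2 fold change of miR-548av-5p was −0.003 in the control, −0.19 in the KO and 1.75 in the KD line. The KD value rests on 13 EV counts. Only the KD value passed, so the mean is not a rise shared by the lines. Without the filter on low counts 0 entries were higher and 1 lower.

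In the control line 2 of 19 entries were lower in EVs and 0 higher, where 22.8% of all tested miRNAs were lower and 30.8% higher. miR-548e-3p fell from 12.7 and 14.7 CPM in cells to 7.54 and 7.70 CPM in EVs, a log2 fold change of −0.98 (SE 0.29, adjusted p = 0.00388), which was lost without control cell replicate 2 (−0.85) or control EV replicate 1 (−0.90). miR-548f-3p is a name with 5 loci in introns of PCDH15, ERBB4, TMEM232, CNTNAP2 and DMD. It passed the filter on low counts only through 1 count in each KD EV library, worth 6.07 and 5.87 CPM. In every other library it stood at 0.955 CPM or less. It had 8 and 10 counts in control cells and 0 in both control EV libraries, at least 1.31-fold lower. That call (adjusted p = 0.0478) was lost in 15 of 19 alternatives. The remaining 17 entries did not pass. The median of the 19 was −0.23 beside 0.02 over all tested miRNAs.

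The KO line was the line with many family differences between EVs and cells. There 11 of 19 entries were higher in EVs and 0 lower (7 of 14 distinct rows), where 33.3% of all tested miRNAs were higher and 25.8% lower. The median was 1.52 beside 0.04. miR-548av-3p passed the filter in this fit with 3.43 CPM in control cell replicate 2 and 1 count in KD EV replicate 2. miR-548av-3p stood at 0.197 and 0.203 CPM in KO cells and 1.86 and 2.84 CPM in KO EVs, a log2 fold change of 3.20 (SE 0.74, adjusted p = 2.17e-04). miR-548aj-5p differed by 2.96 (SE 0.57, adjusted p = 1.19e-05), miR-548ap-3p by 2.90 (SE 0.70, adjusted p = 3.23e-04) and miR-548aa by 2.15 (SE 0.69, adjusted p = 0.00586). These are among the rows that fell most in KO cells, of which miR-548o-3p was not tested in this fit. The KO cell libraries enter both comparisons.

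Smaller differences in the KO line were those of miR-548ad-5p (1.52, SE 0.29), miR-548ay-5p (1.49, SE 0.29) and miR-548d-5p (1.34, SE 0.35), all higher in EVs with an adjusted p of at most 8.72e-04 by edgeR's quasi-likelihood test. miR-548k (−0.23) and miR-548av-5p (−0.19) did not pass. The miR-548aa call was lost without the filter on low counts (1.79, adjusted p = 0.0592), and 11 to 16 entries were called when single libraries were left out.

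In the KD line 1 of 19 entries was higher in EVs and 0 lower, where 7.32% of all tested miRNAs were higher and 12% lower. It was again miR-548av-5p (1.75, SE 0.53, adjusted p = 0.0122), with miR-548k at 1.51 (adjusted p = 0.0502). The call was lost without KD cell replicate 1 (1.41) and without either KD EV library (1.65 and 1.5).

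Whether EVs differed from cells by another amount in the KO than in the control line was tested as an interaction. For 12 of 19 entries, 8 of 14 distinct rows, the EV-to-cell difference was larger in the KO line, and for 0 it was smaller, where 24.9% of all 574 miRNAs had a larger and 23.3% a smaller one. The median was 1.72 beside −0.14. The interaction was 3.90 for miR-548av-3p (SE 0.91, adjusted p = 3.18e-04), and it passed for miR-548e-3p (1.60, SE 0.42, adjusted p = 0.00131), which was lower in EVs in the control line and did not pass in the KO line. It was −0.24 for miR-548k and −0.18 for miR-548av-5p, neither past the threshold. For the KD line the interaction passed for 1 entry upward, miR-548av-5p (1.76, SE 0.59, adjusted p = 0.0293), and 0 downward, where 4.36% of all miRNAs were larger and 14.3% smaller, and 5 of 12 single omissions lost it.

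**Figure D4:**
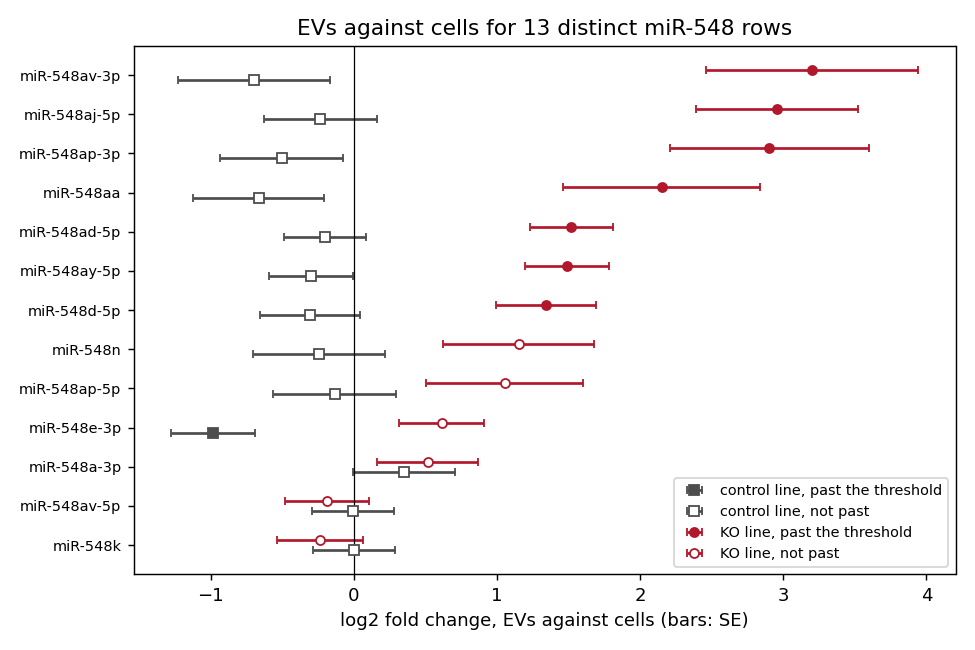
log2 fold change of EVs against cells (horizontal axis, bars for SE) of 13 distinct miR-548 rows, with squares for the control line and circles for the KO line and filled symbols for an adjusted p under 0.05. The 7 filled KO points lie between 1.34 and 3.20; miR-548f-3p, at 0 counts in control EVs, is not drawn.

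Outside the miR-548 names, miR-570, miR-579 and miR-603 are also placed among MADE1-derived miRNAs. Of their 5 entries 3 were tested in cells. In KO against control cells 2 fell and 0 rose, where 34.6% of all 613 tested miRNAs fell and 27.7% rose. miR-579-3p, with 95 and 104 counts against 8 and 23, changed by −2.15 (SE 0.34, adjusted p = 1.28e-05), and miR-570-3p, with 58 and 72 against 24 and 16, by −1.16 (SE 0.32, adjusted p = 0.00407). miR-579-5p stood at −0.14 and did not pass. miR-570-5p has the same sequence as miR-548ai and the same 13 counts, and miR-603 had no count in any library.

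With so few entries nothing is read from that count. The relatives showed no call in KD cells (0 of 3, where 24.3% of all miRNAs rose and 29.5% fell), in KD EVs (0 of 2, where 18.9% were higher and 27.5% lower than in control EVs) or in KO EVs (0 of 2, with 18.9% and 22.3%). In the KO line miR-579-3p was higher in EVs than in cells (1.13, SE 0.45, adjusted p = 0.0266). A list of 19 entries from older transposable elements, such as the arms of miR-28, miR-95, miR-151a, miR-340 and miR-374, had 17 tested in cells. Of these, 2 rose and 10 fell in KO against control cells (median −0.56, beside −0.08 over all 613 miRNAs, of which 27.7% rose and 34.6% fell). In KD against control cells 5 rose and 9 fell (median −0.86, beside −0.11 over all, of which 24.3% rose and 29.5% fell). Of those 9, 6 were arms of miR-374a, miR-374b and miR-545 and miR-421, so that related entries make up most of the count. In KO EVs against KO cells 11 of 16 were higher and 3 lower (median 1.41, beside 0.04 over all 574 miRNAs, of which 33.3% were higher and 25.8% lower). Differences between this list and the miR-548 entries were not tested.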

How the data were processed

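The deposited values are whole-number counts per mature miRNA and library, not normalized, in a single table. The tools named, per the submitters' processing notes, are cutadapt and Bowtie, and the build is hg19. Not given in the sources used here are versions, the miRNA annotation and how reads matching several miRNAs were treated. Totals ran from 164656 to 11840597 counts per library. CPM values, exact Poisson and binomial 95% intervals and the limit of 3 counts were computed from the counts and cover counting error only. No molecular identifiers are recorded, so reads are not independent molecules.

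Tests used edgeR 4.0.16 (limma 3.58.1, R 4.3.3): TMM factors, filterByExpr, robust quasi-likelihood fits and Benjamini-Hochberg adjustment at 0.05 over all tested miRNAs. Lines were compared in fits on the 6 cell or 6 EV libraries, EVs with cells in a fit on all 12. The SE is the size of the log2 fold change over the square root of F, and for scarce miRNAs it can fall under the error from counting. Fits were tested on simulated data. Alternatives were RLE size factors, library totals, no filter on low counts, DESeq2 1.42.0, the replicate number as a block, identical rows once, the 4 libraries compared, and each library left out. Values in all libraries are given for the 8 rows with the highest mean CPM, and up to 8 called entries per direction are named in each comparison. Members and lists were chosen with earlier results of these data known; the comparison of KO with KD cells, the near-equal rows, the UGCAGUU stretch, the loss of single calls and other entries named outside the rule were chosen after values were seen. Sequences and their coordinates are from RefSeq (GRCh38.p14), host genes from GENCODE v29; the files' hg19 build was not mixed in. The 26 entries without a sequence are miR-548a-3p, a-5p, aa, ad-5p, ae-5p, am-5p, ao-3p, ao-5p, ap-3p, au-5p, aw, ax, ay-5p, az-3p, az-5p, c-5p, d-3p, d-5p, e-3p, h-3p, h-5p, i, o-5p, t-3p, v and z.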

Additional observations from a re-analysis of the deposited data

Results flagged for a closer look

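The difference between EVs and cells departed from that of the control line, by the interaction term of edgeR's quasi-likelihood test with Benjamini-Hochberg adjustment, for 8 distinct rows in the KO line. On the log2 scale it was 3.90 for miR-548av-3p, 3.41 for miR-548ap-3p, 3.19 for miR-548aj-5p and 2.81 for miR-548aa. It was 1.78 for miR-548ay-5p, 1.72 for miR-548ad-5p, 1.65 for miR-548d-5p and 1.60 for miR-548e-3p. In each of these rows the KO cells held less than the control cells. In the KD line it was 1.76 for miR-548av-5p, on 13 counts in the KD EVs.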

How the results depend on the processing

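Counts of called entries rest on few rows and few reads. In the main fits 27 entries were tested in cells, 14 in EVs and 19 for EVs against cells. The shares over all miRNAs in the main fits stand with each comparison above. In KD cells 4 entries passed, 2 with DESeq2. In KO cells 17 of 27 tested entries passed, and 11 of 20 with identical and near-equal rows once (an alternative chosen after seeing the data). In KD EVs 1 passed, 2 with library totals or with the 4 libraries compared. In KO EVs 1 passed, and 0 with RLE size factors, library totals, DESeq2, identical rows once, near-equal rows once or the 4 libraries compared. For EVs against cells the mean over lines gave 1, and 4 with library totals. The control line gave 2, and 1 with RLE size factors, library totals, DESeq2 or identical rows once. The KD line gave 1, and 2 with the same settings. The KO line gave 11 of 19 entries, which are 7 of 14 distinct rows. With identical rows once it gave 7, the same count as those distinct rows, and with near-equal rows once 6. The interaction gave 1 for KD, 3 with library totals or DESeq2, and 12 for KO, 7 with near-equal rows once. The 12 entries are 8 of 14 distinct rows. Leaving out single libraries gave 0 to 5 entries in KD cells, 17 to 20 in KO cells, 9 to 19 for KO against KD cells, 0 to 2 in KD EVs and 0 to 1 in KO EVs. For EVs against cells it gave 0 to 2 for the mean, 0 to 3 in the control, 0 to 1 in the KD and 11 to 16 in the KO line, and 0 to 1 and 12 to 16 for the KD and KO interactions. Calls over all miRNAs moved too. For KD against control cells 330 of 613 passed in the main fit and 287 with DESeq2. For KO against control cells these calls numbered 382 and 326. With single libraries left out, they also changed in both comparisons of cells with control cells. The counts of called members thus do not speak of the family alone. Other than through fewer rows or fewer samples, the cause of these shifts was not tested.

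Same-numbered replicates did not deviate together (r from −0.0695 to 0.0662 over 15 pairs of groups, 0 above 0.1). Counting error in scarce miRNAs can hide a shared deviation. Whether cells and EVs with the same number came from the same culture therefore stays unknown. With the replicate number as a block, 0 entries passed in KO EVs, 0 for the mean over lines, 1 in the control line and 2 in the KD line; the other counts, such as 17 in KO cells, stayed within 1.5 times. Single entries were followed under the alternatives run for them only where the main fit had called them, and not all called entries were followed. For KO against control cells the followed entries were those of the first group, and the second group was left out. Identical rows were counted under each of their names. Of the values followed, 602 kept the call, 76 lost it and 0 turned direction. This tally does not cover the other entries.

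The family share in control cells, 108 CPM, was 138 with every entry counted, 193 without miR-100-5p and miR-21-5p in the totals and 87.9 with near-equal rows once. The same settings gave 126, 174 and 84.9 in KD cells, 49.7, 108 and 32.5 in KO cells, 122.3, 159 and 75.1 in control EVs, and 121, 174 and 76.6 in KO EVs. In KD EVs the last settings gave 263 and 125. TMM-scaled totals gave 106 in KD cells, 54.7 in KO cells and 86.7 in control EVs. The TMM factors were 1.31 and 1.33 in the KD EV libraries, which lowers their share. They were 0.945 and 0.894 in the KO EV libraries, which raises theirs. How the EV groups stand to each other thus depends on the scaling. A GC correction was not run, since 15 of 27 tested members in cells (55.6%) have a sequence.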
